A study of Homo sapiens with 5 samples.

Results

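The 10 Kruppel-like factor (KLF) genes KLF2, KLF3, KLF4, KLF5, KLF6, KLF7, KLF10, KLF11, KLF12 and KLF13 were followed in NCI-H209 cells, an established human SCLC cell line, with and without human brain microvascular endothelial cells (HBMECs). They were taken by symbol from the series' gene table and are 10 of the 64837 gene entries counted. The control group was 3 libraries of untreated NCI-H209 cells, and the co-cultured group was 2 libraries of NCI-H209 cells conditioned by HBMECs for 24 h across a porous Transwell membrane, so that the cells shared medium without mixing. Both groups were grown in RPMI-1640 with fetal bovine serum and the labels name no transgene or engineered allele. The paper kept its HBMECs in RPMI-1640 with fetal bovine serum and Nu-serum, and does not state the medium used during co-culture. A difference in medium between the groups therefore cannot be told apart from the presence of HBMECs. The study asked how brain endothelial cells change the expression profile of the tumor cells. The model holds 1 tumor line, and the labels do not say whether the libraries of a group came from separate cultures, so p-values measure the spread between these libraries, which may be technical.

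KLFs are transcription factors that bind GC-rich and CACCC sequences through C2H2 zinc fingers at the C terminus. The zinc fingers are alike across the family, and the N-terminal parts differ and recruit different cofactors. KLF2, KLF4, KLF5, KLF6 and KLF7 belong to the group best known for binding the acetyltransferases p300 and CBP, KLF3 and KLF12 to the group that binds the corepressor CtBP, and KLF10, KLF11 and KLF13 to the group that binds the corepressor Sin3A. KLF2 and KLF4 are known as flow-responsive factors of endothelial cells, KLF4 also as a pluripotency factor and a regulator of epithelial differentiation, and KLF10 as a gene induced early by TGF-beta.

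Of the 10 genes, 8 had an entry in the RefSeq promoter table of GRCh38.p14, and KLF3 and KLF10 had none that was used. The 4 with a single annotated start are shown because they include KLF4 and KLF6, which rose, and KLF2 and KLF13, which did not pass the test. Each line is the 250 bases before the start, 5' to 3' in the direction of the gene, at chr9:107489770-107490019 on the minus strand for KLF4, chr10:3785210-3785459 on the minus strand for KLF6, chr19:16324576-16324825 on the plus strand for KLF2 and chr15:31326585-31326834 on the plus strand for KLF13. The starts are those of RefSeq and differ from the gene limits used for counting. By those limits the KLF4 window lies inside the gene, and the KLF6 and KLF2 windows overlap the ends of theirs. Capitals mark the GC box GGGCGG, the CACCC box and the MEF2 site, each on either strand.
KLF4: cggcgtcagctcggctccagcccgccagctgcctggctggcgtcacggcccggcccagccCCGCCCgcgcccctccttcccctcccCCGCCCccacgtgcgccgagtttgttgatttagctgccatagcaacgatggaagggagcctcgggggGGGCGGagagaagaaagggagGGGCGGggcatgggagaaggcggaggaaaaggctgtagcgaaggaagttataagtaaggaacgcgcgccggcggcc
KLF6: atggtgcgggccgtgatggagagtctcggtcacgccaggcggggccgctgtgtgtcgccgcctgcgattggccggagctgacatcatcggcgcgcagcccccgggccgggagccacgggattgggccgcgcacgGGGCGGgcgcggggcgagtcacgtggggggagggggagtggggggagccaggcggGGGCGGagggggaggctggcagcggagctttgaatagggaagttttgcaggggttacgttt
KLF2: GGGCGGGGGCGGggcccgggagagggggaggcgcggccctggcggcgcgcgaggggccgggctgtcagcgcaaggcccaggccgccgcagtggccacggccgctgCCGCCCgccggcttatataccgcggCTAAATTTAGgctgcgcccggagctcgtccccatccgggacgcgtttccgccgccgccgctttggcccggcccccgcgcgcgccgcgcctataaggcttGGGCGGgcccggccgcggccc
KLF13: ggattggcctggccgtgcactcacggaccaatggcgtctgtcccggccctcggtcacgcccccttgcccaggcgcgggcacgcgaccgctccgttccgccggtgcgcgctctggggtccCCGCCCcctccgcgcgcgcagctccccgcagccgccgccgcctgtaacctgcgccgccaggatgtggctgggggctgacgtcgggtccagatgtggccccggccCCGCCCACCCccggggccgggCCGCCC
The GC box, which factors of the KLF and SP families bind, was found 4 times before KLF4, 2 times before KLF6, 4 times before KLF2 and 3 times before KLF13, and 42.6% of 35116 RefSeq promoter windows of this length hold at least 1. CACCC was present in the window of KLF13 alone among these 4, where it overlaps a GC box, against 54.7% of all windows. KLF2 was the only one of the 4 with a MEF2 site, which 2.80% of all windows hold and which is known as the element through which the kinase ERK5 induces KLF2. Among the genes with several starts, KLF12, not called, also had a MEF2 site, 190 bases before its last listed start. The letters ACGTG, not in capitals, were read on both strands of a single overlapping site before KLF4 and again before KLF6, were absent before KLF2 and KLF13, and are held by 18.5% of all windows. Their presence did not follow the calls in the genes with several starts. KLF5, which rose, had none at either start, and KLF11, which did not pass the test, had them at its first listed start. KLF7, which rose, had them at some starts, and KLF12, not called, at none. These matches describe the sequence and do not show binding.

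All 10 genes passed the filter on low counts. KLF4, KLF5, KLF6, KLF7, KLF3 and KLF10 rose in co-cultured cells, and KLF2, KLF11, KLF12 and KLF13 did not pass the test. Calls were made at an adjusted p under 0.05 from the quasi-likelihood test of edgeR, adjusted by Benjamini-Hochberg over 20360 genes, written below as the edgeR adjusted p. Of all genes tested, 33.4% were called, 18.4% as higher and 15.0% as lower. Of the 13697 protein-coding genes tested, 41.0% were called, 25.1% as higher and 15.9% as lower. Among the 10763 protein-coding genes at or above the level of KLF2, the lowest of the 10 by CPM, 44.9% were called and 27.3% were higher. The median log2 fold change of the 10 genes was 0.59, with a range of -0.30 to 1.32, against a median of -0.03 over all genes tested. A criterion of size, a log2 fold change beyond 1 in either direction and an unadjusted p below 0.05, was read from the study's methods, which do not state the log scale or whether p was adjusted. It was met by KLF4 and KLF10, while 5.44% of all genes met it upward. Under upper-quartile normalization the 6 genes were still called higher and KLF11, KLF12 and KLF13 were called lower, and over all genes 3076 were then higher and 3929 lower, in place of 3750 and 3059.

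Control libraries held 17317045 to 19157348 counts on genes and the co-cultured libraries 18918787 and 15457071. Unmapped reads made up 8.13% to 8.48% of reads in control but 16.8% and 15.9% after co-culture, and their part in the results was not tested. Control replicate 1 stood apart on the second principal component, which held 18.3% of the variance, and values without it are given where they matter. The neuroendocrine identity of the cells was read from 12 markers, of which 11 were tested. INSM1 and SYP had mean levels of 579 and 59.5 CPM, the count scaled to library size after normalization, in control, while CHGA, which encodes chromogranin A, had at most 1 count in any library. Among these markers, SYP and NCAM1 were higher in co-cultured cells, by 0.57 and 0.37 on the log2 scale, and DLL3 was lower, with a log2 fold change of -0.35. In bulk RNA, a change in the share of cells that express a gene and a change in RNA per cell cannot be told apart.

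**Figure D1:**
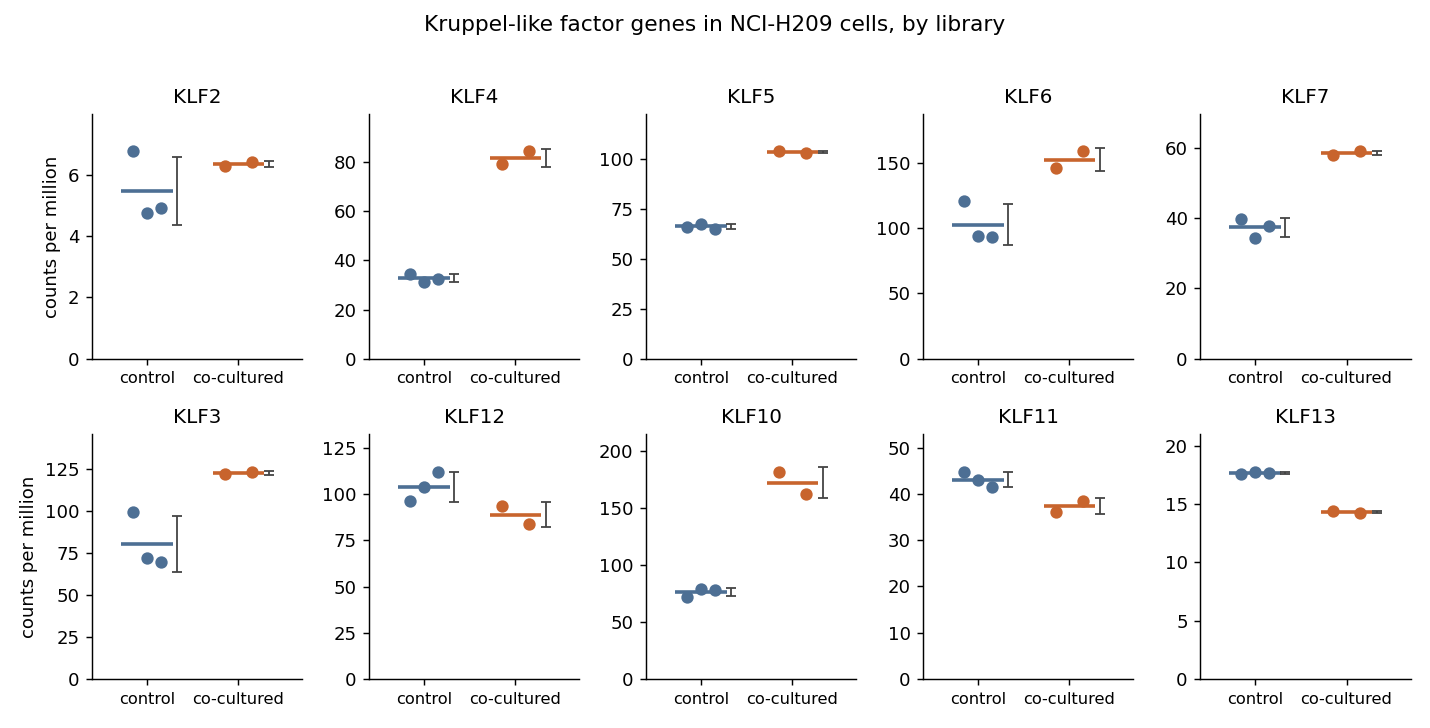
CPM of the 10 KLF genes in each library, with 3 control libraries in blue and 2 co-cultured libraries in orange. Points are libraries, horizontal lines are group means and error bars are SD; each panel has its own axis from 0. KLF4 and KLF10 show the widest gap between groups, and KLF2 is the only gene whose groups overlap.

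Among the members of the p300 and CBP group, 4 of 5 rose. KLF4, on chromosome 9 from 107484852 to 107490482, had 34.6, 31.3 and 32.4 CPM in the control libraries and 79.0 and 84.3 CPM in the co-cultured libraries. Both co-cultured libraries were more than double every control library, and no other gene of the 10 had a larger fold. The control mean was 32.8 ± 1.69 CPM (SD, n = 3) and the co-cultured mean 81.7 ± 3.72 CPM (SD, n = 2), with a ratio of means of 2.49 and a fitted log2 fold change of 1.32 (standard error 0.083, edgeR adjusted p = 2.68e-05).

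KLF5, on chromosome 13 from 73054976 to 73077542, encodes a factor of proliferating epithelial cells. Its CPM was 66.1, 67.6 and 65.1 in control and 104 and 103 in co-cultured cells. The libraries lay close together within each group, and the groups were far apart against that spread. The log2 fold change was 0.64 (standard error 0.072, edgeR adjusted p = 0.000283).

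KLF7, on chromosome 2 from 207074137 to 207167267, is known for its part in the outgrowth of neuronal processes. It had 39.8, 34.4 and 37.8 CPM in control and 58.1 and 59.0 CPM in co-cultured cells. All co-cultured values exceeded all control values, and the log2 fold change of 0.65 (standard error 0.089, edgeR adjusted p = 0.000804) was close to that of KLF5. The intronic transcript KLF7-IT1, counted apart from KLF7 on the same strand, had counts of 34 to 55 in control against 47 and 39 after co-culture (edgeR adjusted p = 0.577).

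KLF6, on chromosome 10 from 3775996 to 3785281, is induced in many cells by injury and serum. Its control libraries had 121, 94.3 and 93.2 CPM, so that replicate 1 stood above the other two, and the co-cultured libraries had 146 and 159 CPM. Even the highest control library was below both co-cultured libraries. The log2 fold change was 0.57 (standard error 0.12, edgeR adjusted p = 0.00552). Without control replicate 1 it was 0.70, and without co-cultured replicate 2 the call was lost, with a log2 fold change of 0.51 and an edgeR adjusted p of 0.0744.

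KLF2, on chromosome 19 from 16324817 to 16327874, was the member of this group without a call. Its counts were 127, 86 and 96 in control against 115 and 97 after co-culture, or 6.75, 4.76 and 4.92 CPM and 6.29 and 6.41 CPM. Control replicate 1 lay above both co-cultured libraries, and the other two lay below them. The log2 fold change was 0.21 with a 95% interval of -0.24 to 0.67 (edgeR adjusted p = 0.451). Without control replicate 1 the log2 fold change was 0.39, with an edgeR adjusted p of 0.0719. Reads on the opposite strand were 26.1% of those on either strand of KLF2 in control and 13.1% in co-cultured cells, against at most 3.17% for each of the other 9 genes in either group, and counted without regard to strand KLF2 had a log2 fold change of 0.03.

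In the CtBP group, KLF3 rose and KLF12 did not pass the test. KLF3, on chromosome 4 from 38664196 to 38701042, encodes a repressor. It had 99.5, 72.2 and 69.4 CPM in control and 122 and 123 CPM in co-cultured cells. As for KLF6, control replicate 1 was the highest control library and was still below both co-cultured libraries. The log2 fold change was 0.61 (standard error 0.14, edgeR adjusted p = 0.00980), and it was 0.79 without control replicate 1. Leaving out either co-cultured library kept the size, at 0.63 and 0.60, but not the call (edgeR adjusted p = 0.0690 and 0.0815). The antisense gene KLF3-AS1 moved the other way, with counts of 44, 42 and 49 in control against 17 and 23 after co-culture, which gave a log2 fold change of -0.98 (standard error 0.30, edgeR adjusted p = 0.0309).

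KLF12, on chromosome 13 from 73686089 to 73995056, is a repressor of the gene for the factor AP-2 alpha. Its CPM was 96.0, 104 and 112 in control and 93.6 and 84.0 in co-cultured cells. Both co-cultured libraries were below all controls, co-cultured replicate 1 by little, and the log2 fold change was -0.23 with a 95% interval of -0.44 to -0.02 (edgeR adjusted p = 0.0873). Without control replicate 1 it was -0.28, with an edgeR adjusted p of 0.00274.

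In the Sin3A group, KLF10 rose, and KLF11 and KLF13 had lower values that did not pass the test. KLF10, on chromosome 8 from 102648779 to 102655902, had 72.4, 79.0 and 78.4 CPM in control and 182 and 163 CPM in co-cultured cells. Every co-cultured library was more than double every control library. The control mean was 76.6 ± 3.67 CPM (SD, n = 3) and the co-cultured mean 173 ± 13.7 CPM (SD, n = 2), with a ratio of means of 2.25 and a fitted log2 fold change of 1.17 (standard error 0.083, edgeR adjusted p = 4.14e-05).

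KLF11, on chromosome 2 from 10042849 to 10054836, is the closest relative of KLF10 and shares its name as a TGF-beta-inducible gene. It had 44.8, 43.0 and 41.5 CPM in control and 36.1 and 38.5 CPM in co-cultured cells. Both co-cultured values lay below the lowest control value, and the log2 fold change of -0.21 had a 95% interval of -0.40 to -0.01 (edgeR adjusted p = 0.0943).

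KLF13, on chromosome 15 from 31326855 to 31435665, is known from the control of CCL5 in T cells. Its CPM was 17.6, 17.8 and 17.7 in control and 14.4 and 14.3 in co-cultured cells. The control libraries had a coefficient of variation of 0.581%, the lowest of the 10 genes, and the groups did not overlap. The log2 fold change was -0.30 with a 95% interval of -0.55 to -0.06 (edgeR adjusted p = 0.0593). Without control replicate 1 the log2 fold change was again -0.30, with an edgeR adjusted p of 0.0277. A second entry of KLF13 on a sequence outside the primary assembly had at most 1 count per library. Among all genes tested, the groups did not overlap for 59.4%, with the co-cultured libraries above all controls for 29.4% and below them for 30.0%, and among the 10 genes they lay above for 6 and below for 3.

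The other genes of the family put these values in place. KLF1, KLF14, KLF17 and KLF18 reached no more than 4 counts per library and were not tested. KLF9, a Sin3A-binding member induced by steroid and thyroid hormones, rose from a control mean of 54.6 ± 10.0 CPM (SD, n = 3) to a co-cultured mean of 89.2 ± 1.41 CPM (SD, n = 2), with a log2 fold change of 0.71 (edgeR adjusted p = 0.00392). KLF8, the third CtBP-binding member, had a log2 fold change of -0.36 (edgeR adjusted p = 0.122), KLF16 of 0.21 and KLF15 of -0.09. Of the 9 SP factors, which share the zinc fingers of the KLFs, 8 were tested and 3 rose, where 25.1% of protein-coding genes tested were called higher. SP8 went from 278, 199 and 188 counts to 687 and 674, a log2 fold change of 1.80 (edgeR adjusted p = 0.000124). SP5, a gene induced by Wnt signaling, went from 13, 14 and 10 counts to 61 and 24, a log2 fold change of 1.91 (edgeR adjusted p = 0.00557). SP4 rose by 0.23. Reads on the opposite strand were 57.0% of those on either strand of SP5 in control and 28.6% in co-cultured cells. The broadly expressed SP1 and SP3 had log2 fold changes of -0.17 and 0.07, with 95% intervals of -0.34 to just under 0 and -0.09 to 0.24, and SP2, SP6 and SP9 had values of -0.07, -0.30 and 0.17. None of these last 5 passed the test.

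**Figure D2:**
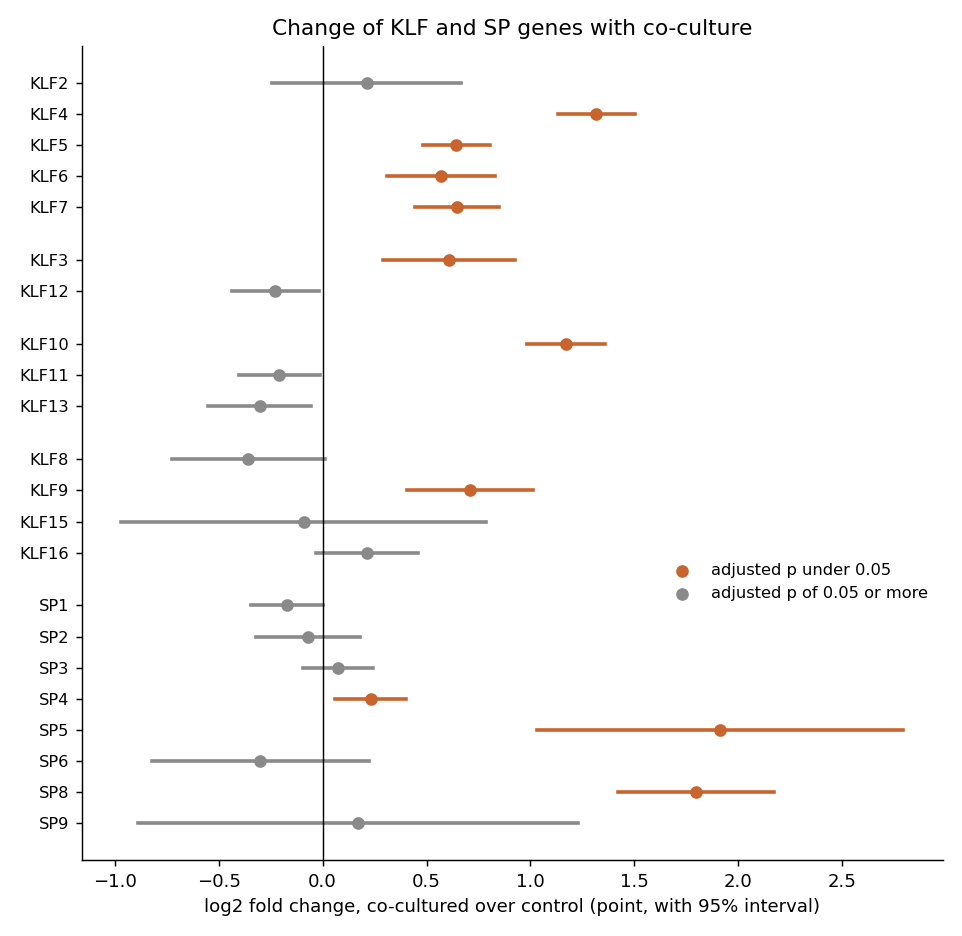
Log2 fold change between groups, positive where co-cultured cells were higher, with 95% intervals, for the 10 KLF genes in order of their cofactor groups (p300 and CBP, CtBP, Sin3A), then the 4 other KLF genes and 8 SP genes tested. Orange marks an edgeR adjusted p under 0.05; KLF4 and KLF10 lie above 1 among the KLFs, and SP5 and SP8 among the SP factors.

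To compare levels between genes, CPM was divided by the length of the union of exons in kilobases (RPKM). In control cells KLF10 had the highest mean level of the 10 genes at 19.1 ± 0.917 RPKM (SD, n = 3), although in control replicate 1 KLF6 was above it, with 18.2% of the summed level of the 10 genes against 16.7%. It was followed by KLF5 at 17.0, KLF6 at 16.7, KLF3 at 12.8, KLF12 at 9.52, KLF11 at 9.39, KLF4 at 8.95, KLF7 at 4.03, KLF2 at 2.71 and KLF13 at 1.88 RPKM. The control libraries of neighbours overlapped for KLF5 with KLF6, KLF6 with KLF3, KLF12 with KLF11 and KLF11 with KLF4, so these pairs are not ordered beyond their spread. The control range of KLF6, 15.2 to 19.7 RPKM, also overlapped that of KLF10, 18.1 to 19.7 RPKM, and the range of KLF12 overlapped that of KLF4. In co-cultured cells KLF10 had 43.1 RPKM and KLF4 22.3 RPKM, and KLF4 moved from rank 7 to rank 4. The summed level of the 10 genes was 108, 99.3 and 99.1 RPKM in control and 164 and 163 RPKM in co-cultured cells. Within that sum, KLF10 took 16.7% to 19.9% in control and 27.7% and 25.0% in co-cultured cells, and KLF4 took 8.61% to 8.93% and then 13.1% and 14.1%. KLF5 had a similar share in both groups, at 15.7% to 17.5% in control and 16.2% and 16.3% in co-cultured cells. The shares of KLF11, KLF12 and KLF13 were lower in both co-cultured libraries, KLF11 going from 9.04% to 9.42% in control to 4.79% and 5.15%, which follows in part from the rise of the others since shares sum to a whole.

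**Figure D3:**
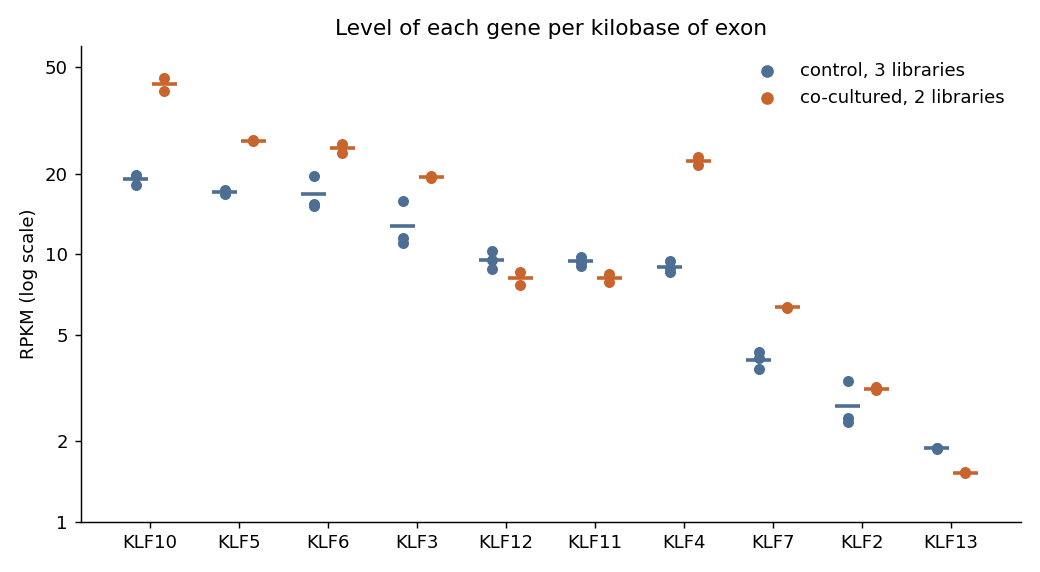
Level of the 10 genes in RPKM on a log scale, ordered by the control mean, with points for libraries and lines for group means. KLF10 has the highest mean in both groups, KLF4 passes KLF3, KLF11 and KLF12 in the co-cultured libraries, and KLF2 and KLF13 stay lowest.

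Proteins that act with the KLFs were read from a list of 20 cofactors and ubiquitin ligases, all of which were tested. Of these, 6 were higher, 1 was lower and 13 did not pass the test, with a median log2 fold change of 0.18. Over all protein-coding genes tested, 25.1% were called higher and 15.9% lower, so the number of cofactors called higher was near the general share. CTBP2, one of the CtBP corepressors bound by KLF3 and KLF12, rose from a control mean of 85.5 ± 5.64 CPM (SD, n = 3) to a co-cultured mean of 148 ± 2.59 CPM (SD, n = 2), with a log2 fold change of 0.79 (edgeR adjusted p = 0.000190). SAP30, a subunit of the Sin3A complex, rose by 0.95 on the log2 scale. KAT2A, an acetyltransferase, was the gene that fell, by 0.54 on the log2 scale. The namesake cofactors themselves did not pass the test: EP300 had a log2 fold change of 0.23, CREBBP of -0.09, CTBP1 of 0.20 and SIN3A of -0.15. EP300, CREBBP, CTBP1 and SIN3A were named after their values were seen.

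Of 17 kinases and factors known to act upstream of KLF genes, 16 were tested, 6 were higher and 10 did not pass the test. The median log2 fold change of the list was 0.05, and 25.1% of all protein-coding genes tested were called higher. MEF2A, one of the MEF2 factors that bind MEF2 sites such as the one shown before KLF2, rose from a control mean of 104 ± 6.73 CPM (SD, n = 3) to a co-cultured mean of 187 ± 9.07 CPM (SD, n = 2), with a log2 fold change of 0.85 (edgeR adjusted p = 0.000154). The kinase gene MAP3K2 and FOXO1, which encodes a factor that induces KLF2 in lymphocytes, rose by 0.46 and 0.61 on the log2 scale. MAPK7, the gene of ERK5, named after its value was seen, rose by 0.42. MEF2D had a log2 fold change of -0.19, MEF2B had 7 to 12 counts per library, and MEF2C had at most 5 counts in any library.

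Of 24 genes known as KLF targets in other cells, 16 were tested and 4 were higher, and the middle value of their log2 fold changes was -0.14. This number is close to the 25.1% called higher over protein-coding genes tested. CDKN1A, the gene of the cell cycle inhibitor p21 and a target of KLF4 and KLF6, rose from a control mean of 27.5 ± 5.74 CPM (SD, n = 3) to a co-cultured mean of 90.3 ± 6.51 CPM (SD, n = 2), with a log2 fold change of 1.71 (edgeR adjusted p = 7.72e-05). ATF3 and TFAP2A rose by 1.10 and 0.38 on the log2 scale, and TGFBR1 rose by 0.29. Of the endothelial targets of KLF2, NOS3, the gene of endothelial nitric oxide synthase, had counts of 41, 39 and 4 in control against 3 and 7 after co-culture, so that control replicate 3 lay between the co-cultured libraries, and its log2 fold change of -2.29 did not pass the test (edgeR adjusted p = 0.0849). S1PR1 had at most 1 count in any library, and THBD, which encodes thrombomodulin, had 5 to 14 counts per library.

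Several KLF genes are known to be induced rapidly by serum or stress, and a list of 25 immediate early genes was read beside them. Of the 19 tested, 12 were higher and BTG2 was lower, and the median over the 19 was 0.62 on the log2 scale, next to 0.59 for the 10 KLF genes. Among protein-coding genes tested, 25.1% were called higher. ATF3, JUNB and JUND had the smallest p, with log2 fold changes of 1.10, 1.25 and 0.62. ATF3 stands in the target list too. The part of handling or stress in the rise of the KLF genes was not tested.

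Endothelial cells are known to express KLF2, KLF4 and KLF6, so 18 endothelial markers were read in the same libraries. Their summed level was 10.1 to 21.2 CPM in control and 13.7 CPM in each co-cultured library. KLF4 had a mean of 32.8 CPM in control and 81.7 CPM in co-cultured cells. The series holds no library of HBMECs alone, so the level of KLF4 beside these markers in HBMECs is not known here. A part of HBMEC RNA in the KLF values was not tested. PLVAP and MMRN1 had 0 counts in every library, and TIE1, ROBO4, EMCN, MMRN2 and SOX17 had at most 3. PECAM1 had counts of 3 to 14 in control against 18 and 11 after co-culture, CDH5 had 4 to 11 and then 7 and 11, CLDN5 had 4 to 7 and then 6 and 1, and VWF had 75 to 159 and then 87 and 90. Of the 9 markers tested, ESAM was higher, with counts of 3 to 6 in control against 21 and 14 after co-culture, and 8 did not pass the test. Among those 8, FLT1, KDR and TEK had log2 fold changes of -3.97, -1.30 and -1.85. Control counts were 30, 28 and 0 for FLT1, 37, 27 and 2 for KDR, and 31, 24 and 0 for TEK. After co-culture they were 1 and 1, 12 and 4, and 6 and 3. Control replicate 3 was thus below both co-cultured libraries for each. The median log2 fold change of the 9 was -0.09.

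Each log2 fold change was recomputed under 12 alternatives, including leaving out each library. KLF4, KLF5, KLF7 and KLF10 were called in all 12, KLF6 in 11 and KLF3 in 10, and the direction of every one of the 10 genes was the same in all 12. KLF4 ran from 1.24 to 1.37 and KLF10 from 1.09 to 1.25. KLF2 was called in none of the 12, KLF11 in 1, and KLF12 and KLF13 in 2 each.

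**Figure D4:**
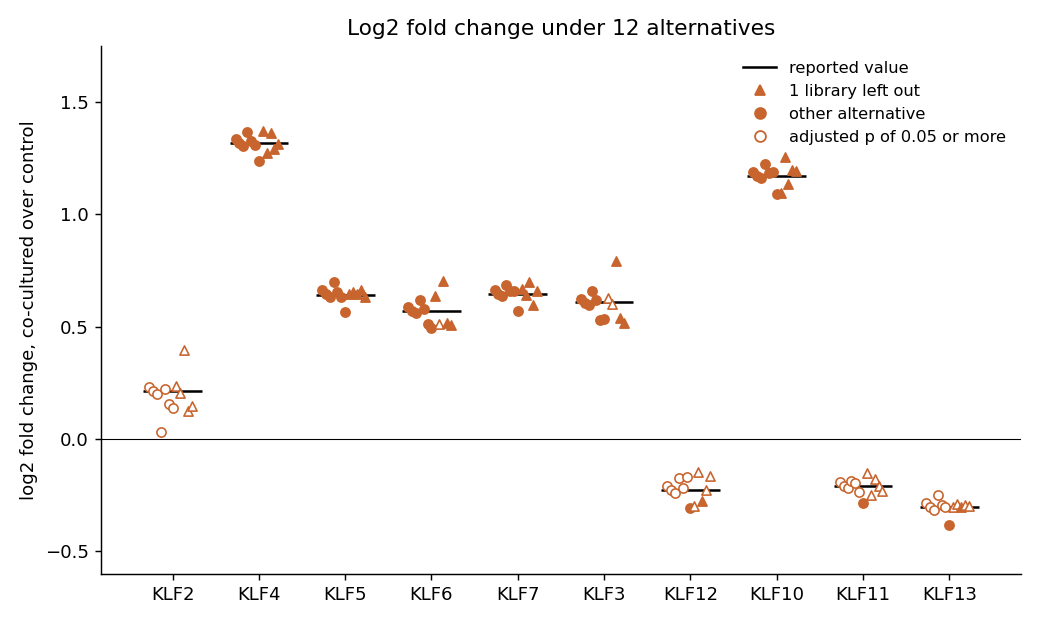
Log2 fold change of each KLF gene as reported (black line) and under 12 alternatives, with triangles for 1 library left out and circles for the other settings. Open symbols have an adjusted p of 0.05 or more. All values of a gene lie on 1 side of 0, and the values of KLF4 and KLF10 lie above 1 in every setting.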

How the data were processed

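RNA-Seq libraries of NCI-H209 cells, 3 control and 2 co-cultured, had been aligned to GRCh38 with STAR 2.6.1b per the submitters' processing notes, which also name CASAVA 1.8 and DESeq2. The authors deposited raw counts per gene from rRNA-depleted, directional libraries, without normalization, and the counts of the strand of the gene were used. Their table of the comparison holds means, fold changes, test statistics and p-values, of which none was used. Only its gene symbols and identifiers served to match the members. Identifiers were those of GENCODE release 29.

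Counts on genes were 15457071 to 19157348 per library, so that 3 counts correspond to 0.157 to 0.194 CPM, and floors cover counting error only. With R 4.3.3 and edgeR 4.0.16, low counts were filtered by filterByExpr, libraries scaled by TMM and genes tested with glmQLFTest, without covariates and with Benjamini-Hochberg adjustment. Standard errors were derived from the log2 fold change and its F statistic. The biological coefficient of variation was 10.2%. No replicate pair was within sampling noise (chi-square over its degrees of freedom at least 4.60). An exact permutation test of 3 against 2 libraries cannot give a p under 0.1. The steps were tested on simulated data.

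The members and the gene lists, written from general knowledge, were chosen with earlier results of these data known. Named are all members, the other KLF and SP genes tested, the 3 genes of each further list with the smallest p among those called, and set markers. BTG2, DLL3, TGFBR1, KLF3-AS1, KLF7-IT1, MAPK7, NOS3, S1PR1, THBD, other MEF2 genes and the cofactors named above were named after their values were seen. So were the endothelial markers FLT1, KDR and TEK. Results of some listed genes are not reported here. Promoter windows came from RefSeq, GRCh38.p14, and were searched for the GC box, the CACCC box, ACGTG and the MEF2 site on both strands. They were also searched for the CArG box CCWWWWWWGG (W is A or T), TGANTCA (N is any base) and TGACGTCA. The CArG box was found at a start of KLF7, TGANTCA at a start of KLF12 and TGACGTCA at a start of KLF11. Alternatives were DESeq2 1.42.0, 2 normalizations, 2 filters, a replicate block, unstranded counts and each library left out. Plots were drawn with matplotlib 3.10.9.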

Additional observations from a re-analysis of the deposited data

How the results depend on the processing

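Of the 120 recomputed log2 fold changes of the 10 KLF genes, 112 kept their direction and their side of the threshold, 3 kept the direction and lost the call, 5 gained it and 0 changed sign. The number of KLF genes called was 6 with DESeq2, median-ratio normalization, both other filters, unstranded counts and the replicate block, and 9 with upper-quartile normalization. Leaving out each library in turn gave 4 to 8 KLF genes called and 2734 to 9897 genes over the whole table, the lowest without co-cultured replicate 1, the highest without control replicate 1, and 3023 without co-cultured replicate 2. Leaving out a co-cultured library leaves a single one, assumed to vary like the controls. The cause was not tested. Genes past the criterion of size, a log2 fold change beyond 1 with an unadjusted p below 0.05, numbered 2128 as reported, and 1280 with at least 10 counts in every library, which tested 17415 genes.

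The groups share replicate numbers 1 and 2, and nothing says that the numbers mark a shared culture or day. With the replicate block 6 KLF genes and 4824 genes in all were called, in place of 6 and 6809. Deviations from the group means correlated at -0.11 for the libraries numbered 1 and at -0.07 for those numbered 2. Control replicate 1 with co-cultured replicate 2 gave 0.11, and control replicate 2 with co-cultured replicate 1 gave 0.07. The deviations of 2 co-cultured libraries mirror each other, so these values are not separate checks of a pairing. Depth limits KLF2, with 86 to 127 counts per library, more than the other members.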
